A study of Mus musculus with 3 samples.

Results

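The AMPA receptor genes are the 4 pore-forming subunit genes Gria1 to Gria4 and 6 genes of auxiliary proteins, namely Cacng2, Cacng3, Cacng8, Cnih2, Cnih3 and Shisa9. They were chosen by gene symbol from a table of dentate gyrus transcript levels that holds values for 33101 gene names, and each of the 10 symbols had 1 entry. The dentate gyrus, the hippocampal subregion of the granule cells, was micro-dissected from both hemispheres of male wild-type mice on a C57BL/6 background (strain label C57Black6) aged 8 to 10 weeks, and poly(A) RNA was sequenced from 3 samples. All 3 belong to 1 untreated group, so there is no second condition to compare with. Levels are in FPKM, fragments scaled by transcript length and sequencing depth, which allows genes of different length to be set side by side. The table gives 1 value per gene for the group. No value per sample, standard deviation or test against replicate spread can therefore be given, and the number of fragments behind a value is unknown. Small differences between 2 genes cannot be told apart from replicate error here.

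AMPA receptors are tetrameric, glutamate-gated cation channels that carry most of the fast excitatory current at brain synapses. The subunit encoded by Gria2 sets calcium permeability, because its transcript is edited at the Q/R site in the pore loop, where a glutamine codon is read as arginine, and receptors that contain the edited subunit pass little calcium. Auxiliary proteins travel with the pore: the transmembrane AMPA receptor regulatory proteins (TARPs, Cacng genes) anchor receptors to the postsynaptic scaffold and slow their closing, the cornichons Cnih2 and Cnih3 aid export from the endoplasmic reticulum and prolong the current, and the CKAMP family protein encoded by Shisa9, prominent in dentate granule cells, changes desensitisation and short-term plasticity.

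The Q/R site shows how closely related the 4 pore genes are and where the edited base lies. Below is the GENCODE M21 coding sequence around it, 45 bases each, with the codon of the site in capitals. For Gria1, Gria2 and Gria4 it comes from the transcript named in the table, and for Gria3, whose listed transcript is noncoding, from its longest coding transcript. Gria2 is shown as encoded by the genome, before editing.
Gria1: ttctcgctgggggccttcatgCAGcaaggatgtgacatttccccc
Gria2: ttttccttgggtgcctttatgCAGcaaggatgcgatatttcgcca
Gria3: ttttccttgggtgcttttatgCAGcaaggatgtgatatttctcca
Gria4: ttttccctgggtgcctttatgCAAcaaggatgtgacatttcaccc

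The site was codon 607 of the Gria2 coding sequence, 600 of Gria1, 612 of Gria3 and 608 of Gria4. Gria1, Gria2 and Gria3 carry CAG there and Gria4 carries CAA, both glutamine codons. Against Gria2, the 45 bases differed at 3 positions in Gria3, 6 in Gria4 and 9 in Gria1. Over whole coding sequences, identity between the 4 genes ranged from 71.7% (Gria1 with Gria4) to 73.9% (Gria2 with Gria4) of aligned bases. The longest run of identical bases was 40 nt between Gria1 and Gria2, 37 nt between Gria2 and Gria3 and 20 nt between Gria1 and Gria4. With the read length not given in the sources used, how many fragments fitted more than 1 of these genes was not tested. FPKM values carry no information on the edited base.

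All 10 genes were at 1 FPKM or more, and the lowest, Gria4, had 5.05 FPKM, above 58.0% of protein-coding names. At 10 FPKM or more stood 8 of 10, against 30.8% of 20135 protein-coding names with a value, and 2 of 10 stood at 100 FPKM or more, against 2.63%. At 1 FPKM, the share of protein-coding names was 56.4%. The median of the 10 genes was 39.2 FPKM, beside a median of 6.68 FPKM over the 15273 protein-coding names listed above 0. From the highest deposited value, the order was Gria1, Cnih2, Cacng8, Gria2, Cnih3, Gria3, Cacng3, Shisa9, Cacng2 and Gria4. The highest and the lowest were 49.3-fold apart. Neighbours in this order were close in 3 places: Cnih2 to Gria1 was a ratio of 0.980, Cacng8 to Gria2 was 1.06, and Gria3 exceeded Cacng3 by 1.03-fold. No replicate spread is at hand to separate these. The widest steps in the deposited values were those from Shisa9 down to Cacng2, 2.88-fold, and from Cnih2 down to Cacng8, 2.61-fold. With each value rescaled to the longest coding transcript of its gene, Cnih3 at 39.4 FPKM came before Gria2 at 34.1 FPKM, the rest of the order was the same, and the step from Cnih2 to Cacng8 was the widest at 3.59-fold.

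**Figure D1:**
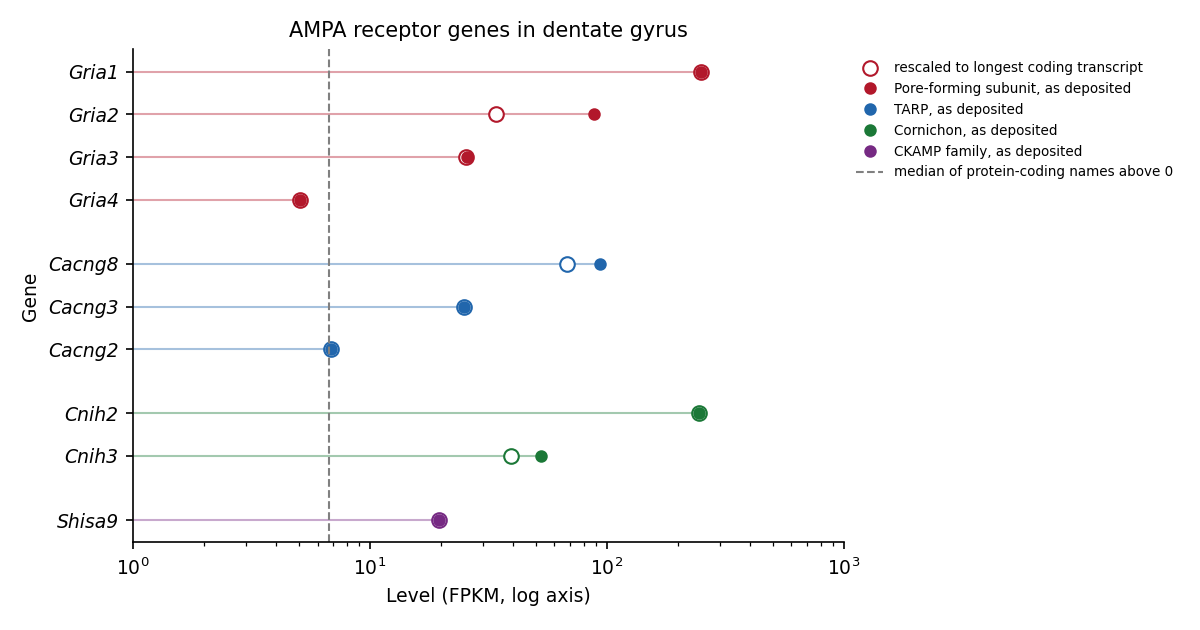
Levels of the 10 AMPA receptor genes by role, in FPKM on a log axis. Filled points are the deposited group values, open points the same values multiplied by the listed over the longest coding transcript length, and the dashed line marks 6.68 FPKM, the median of protein-coding names above 0. Gria1 and Cnih2 stand highest, at 249 and 244 FPKM, and Gria4 is the only gene left of the line, with Cacng2 just right of it.

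Among the pore genes, Gria1, whose long cytoplasmic tail carries phosphorylation sites linked to synaptic potentiation, had a value of 249 FPKM. It ranked 132nd of the 20135 protein-coding names, above 99.3% of them. Gria2, the gene of the calcium-limiting subunit, had 87.8 FPKM, above 96.9% of protein-coding names. Gria3, which forms heteromers with Gria2 products, had 25.7 FPKM, above 85.4%. Gria4, a subunit gene best known from interneurons and early development, had 5.05 FPKM, above 58.0% and below the median of names listed above 0. Gria1 thus exceeded Gria3 by 9.67-fold, and Gria3 exceeded Gria4 by 5.10-fold.

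As shares of their summed 367 FPKM, Gria1 made up 67.7%, Gria2 23.9%, Gria3 7.01% and Gria4 1.37%. These are shares of transcripts and do not give the make-up of assembled receptors. The value of Gria2 carries a limit: its listed transcript has 4026 nt, 38.8% of the 10371 nt of its longest coding transcript. If fragments of the whole gene had been divided by the shorter length, the value on the longer one would be 34.1 FPKM, and Gria1 would exceed Gria2 by 7.30-fold in place of 2.84-fold. Gria2 would then exceed Gria3 by 1.35-fold in place of 3.41-fold, with a share of 10.9% for Gria2 and 79.4% for Gria1. The sources used here do not say which length entered the deposited values. Under both readings the order Gria1, Gria2, Gria3, Gria4 was the same. Gria3 has a listed transcript of the retained-intron type, with a length of 5108 nt, close to its longest coding form of 5192 nt.

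**Figure D2:**
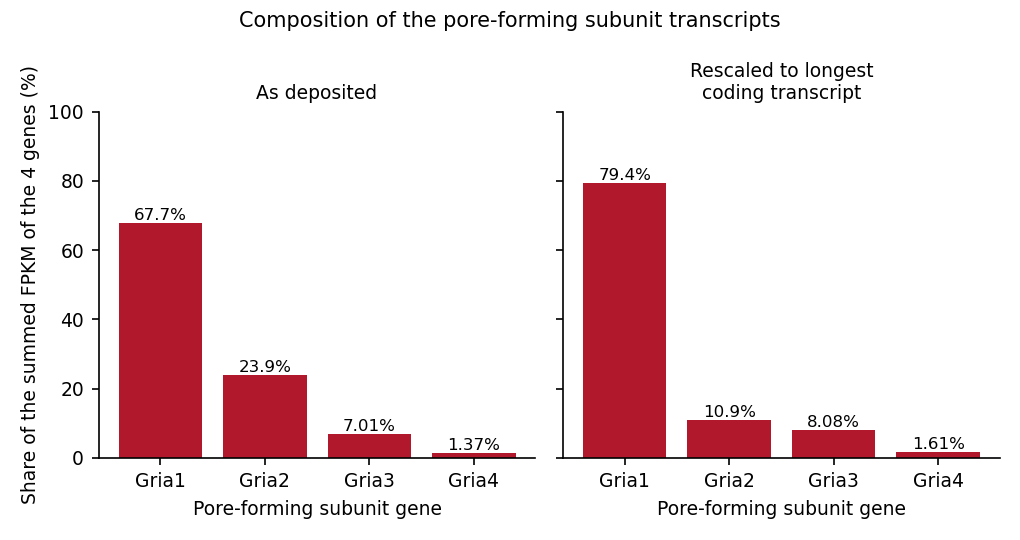
Shares of the 4 pore-forming subunit genes in their summed FPKM, in percent on a linear axis from 0. Left bars use the deposited values and right bars the values rescaled to the longest coding transcript, where Gria1 moves from 67.7% to 79.4% and Gria2 from 23.9% to 10.9%.

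Among the TARP genes, Cacng8, the hippocampus-enriched TARP, was highest at 93.3 FPKM. Cacng3 had 25.0 FPKM, and Cacng2, which encodes stargazin, the founding TARP, had 6.82 FPKM. Cacng8 exceeded Cacng3 by 3.73-fold and Cacng2 by 13.7-fold, and made up 74.6% of the summed 125 FPKM of these 3 genes. The other TARP genes were read from a list of the remaining Cacng genes. Cacng7, a type II TARP gene, had 51.2 FPKM, Cacng5, the other type II gene, had 7.37 FPKM, and Cacng4, of the same type I class as the 3 members, had 6.33 FPKM. Over all 6 TARP genes, Cacng8 made up 49.1% of 190.0 FPKM. Cacng6 and Cacng1, gamma subunit genes whose products are not TARPs (the product of Cacng1 belongs to the muscle calcium channel), were at 0.614 FPKM and listed at 0. Cacng2 thus lay near Cacng4 and Cacng5. Of the 6 TARP genes, 3 stood above 10 FPKM, namely Cacng8, Cacng7 and Cacng3, against 30.8% of protein-coding names.

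Among the cornichons, Cnih2 had 244 FPKM, ranking 134th of the protein-coding names, next to Gria1 at 132nd. Cnih3 had 52.7 FPKM. Cnih2 exceeded Cnih3 by 4.63-fold and made up 82.2% of their sum of 297 FPKM. Cnih2 also exceeded Cacng8, the highest TARP gene, by 2.61-fold. The cornichon sum was 0.807 times the pore-forming sum, and the sum of the 3 TARP members was 0.341 times it. The coding sequences of Cnih2 and Cnih3 were 77.1% identical, with a longest identical run of 19 nt. Their relatives Cnih1, a ubiquitous cargo receptor gene, and Cnih4 had 44.5 and 11.9 FPKM. The listed transcript of Cnih1 was 51.3% as long as its longest coding one. For Cacng8 and Cnih3 the listed transcript was 72.8% and 74.8% as long as the longest coding one. Rescaled, Cacng8 would be at 67.9 FPKM and Cnih3 at 39.4 FPKM.

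Shisa9 had 19.6 FPKM, above 81.2% of protein-coding names and 0.210 times Cacng8. Its relatives in the CKAMP family lay on both sides of it: Shisa7 had 48.8 FPKM and Shisa6 had 16.5 FPKM. Shisa8 was not analysed here. Gsg1l, which encodes an auxiliary protein of another family that reduces receptor currents, had 8.17 FPKM. Of the 5 measured genes of this list of other auxiliary proteins, cornichon relatives included, 4 reached 10 FPKM, against 30.8% of protein-coding names. Their median was 16.5 FPKM.

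The members lie on 9 chromosomes, with only Cacng3 and Cacng8 on the same one. On the mm9 build that the table uses, listed transcripts span chromosome 11, 56825312 to 57143746 on the plus strand for Gria1, chromosome 3, 80488858 to 80606713 on the minus strand for Gria2, chromosome X, 38754031 to 38966276 on the plus strand for Gria3, and chromosome 9, 4417899 to 4796234 on the minus strand for Gria4. Cacng2 lies on chromosome 15, 77822178 to 77950458, minus strand. Cacng3 and Cacng8 lie on chromosome 7, plus strand, at 129815258 to 129912905 and 3394567 to 3415366. Cnih2 lies on chromosome 19, 5092871 to 5098418, minus strand, Cnih3 on chromosome 1, 183282759 to 183390040, plus strand, and Shisa9 on chromosome 16, 11984674 to 12267896, plus strand. The spans differ widely, from 5.55 kb for Cnih2 and 20.8 kb for Cacng8 to 318 kb for Gria1 and 378 kb for Gria4. The longest span thus belonged to the lowest gene, and the next longest to the highest. The only entries that overlapped a member on the opposite strand were 2 pseudogenes within Cnih3, both listed at 0, and an antisense gene at the start of Cacng2 with no value.

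The promoters of the members, windows of 250 bases before to 50 bases after the start site, were found in the RefSeq table (GRCm38.p6) for 7 of 10 genes. Whether these start sites are those of the listed transcripts, which are placed on mm9, was not tested. Since the study as a whole concerned DNA methylation, their CpG sites were counted (the letters CG, which read the same on both strands). Counts ranged from 2 in Cacng8 through 9 in Cacng3, 17 in Gria4, 20 in Cacng2, 25 in Cnih2 and 26 in Gria2 to 42 in Cnih3, beside a median of 7 over all 32851 promoters of that length. Cnih2 and Cacng8, both among the 3 highest genes, had 25 and 2 and are shown with CG in capitals. The first lies at chr19:5098472-5098771 on the minus strand and the other at chr7:3393792-3394091 on the plus strand.
Cnih2: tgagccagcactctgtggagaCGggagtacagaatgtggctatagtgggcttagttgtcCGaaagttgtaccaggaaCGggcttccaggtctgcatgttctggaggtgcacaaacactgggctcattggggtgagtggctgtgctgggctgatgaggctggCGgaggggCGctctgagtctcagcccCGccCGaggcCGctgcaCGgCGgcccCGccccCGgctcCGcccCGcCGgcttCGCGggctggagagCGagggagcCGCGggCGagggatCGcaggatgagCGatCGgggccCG
Cacng8: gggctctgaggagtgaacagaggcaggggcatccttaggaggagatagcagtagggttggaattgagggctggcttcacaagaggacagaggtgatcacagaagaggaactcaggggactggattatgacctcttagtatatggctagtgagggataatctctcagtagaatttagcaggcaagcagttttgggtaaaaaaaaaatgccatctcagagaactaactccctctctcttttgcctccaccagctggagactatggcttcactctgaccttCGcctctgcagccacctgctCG

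A share of 81.6% of all promoters held fewer CG than the window of Cnih2, and 14.1% held fewer than that of Cacng8. The lowest member, Gria4, held 17, more than Cacng3 and Cacng8, which had higher levels. No methylation values were analysed here.

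Genes that assemble, anchor and regulate AMPA receptors were read from further lists. Their counts at 10 FPKM are to be read against the 30.8% of all protein-coding names at that level. Of 6 genes linked to receptor assembly, all were at 10 FPKM or more, and their median was 43.3 FPKM. Frrs1l, needed to build the receptor complex in the endoplasmic reticulum, had 51.8 FPKM, its partner Cpt1c had 36.8 FPKM, and Abhd6, a hydrolase that limits receptor delivery, had 23.8 FPKM. The acyltransferase gene Porcn had 49.8 FPKM, the lipid phosphatase gene Sacm1l 13.3 FPKM, and the lipase gene Abhd12 155 FPKM with a noncoding listed transcript. Among 12 other partners, 8 reached 10 FPKM, and the median was 31.6 FPKM. Olfm1, a secreted olfactomedin, led them at 886 FPKM (noncoding listed transcript), followed by the neuronal pentraxin gene Nptx1, whose product clusters AMPA receptors, at 151 FPKM and Prrt1 at 120 FPKM. The pentraxin receptor gene Nptxr was listed at 0, which can be a failed estimate. Syndig1, counted among the 8 at 16.5 FPKM, has a listed transcript 19.85% as long as its longest coding one. Rescaled, Syndig1 would fall below 10 FPKM, and the count was not redone.

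Of 19 trafficking and anchoring genes, 15 reached 10 FPKM, against 30.8% of protein-coding names, and the median was 27.1 FPKM. Nsf, a fusion ATPase that binds the tail of the Gria2 product, was highest at 380 FPKM. Dlg4, which encodes the scaffold PSD-95 that holds TARPs, had 315 FPKM, and Epb41l1, a cytoskeletal adaptor of the Gria1 product, had 130 FPKM. The listed transcript of Dlg4 is 54.0% as long as its longest coding one. That of Myo5b, counted among the 15 at 44.8 FPKM, is 9.58% as long as its longest coding one. Rescaled, Myo5b would fall below 10 FPKM, and the count was not redone. The lowest was Grip2 at 0.749 FPKM. The other PDZ partners of Gria2, Pick1 at 19.0 FPKM and Grip1 at 4.37 FPKM, lay below Gria2 itself (these 2 were named after their values were seen). All 11 kinase and phosphatase genes reached 10 FPKM, against the same 30.8%. Their median was 112 FPKM. As deposited, they were led by the CaMKII genes Camk2a and Camk2b at 1205 and 635 FPKM and the calcineurin gene Ppp3ca at 546 FPKM. The listed transcript of Ppp3ca is noncoding and 20.8% as long as its longest coding one. Rescaled, Ppp3ca would lie below Ppp3r1 at 263 FPKM, whose listed transcript is its longest coding one. Prkca was lowest at 22.3 FPKM.

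Among the editing enzymes, the gap between Adar and Adarb1 was wider than the 49.3-fold between the highest and lowest members. It rests on the low value of Adarb1, and Adar and Adarb2 were closer than those members. Adar, the broadly expressed adenosine deaminase, had 31.4 FPKM. Adarb1, whose product edits the Q/R site of Gria2 shown above, had 0.136 FPKM, 0.00435 times Adar, and Adarb2, a relative without known activity, had 7.23 FPKM. Whether the quantification failed for Adarb1 was not tested.

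**Figure D3:**
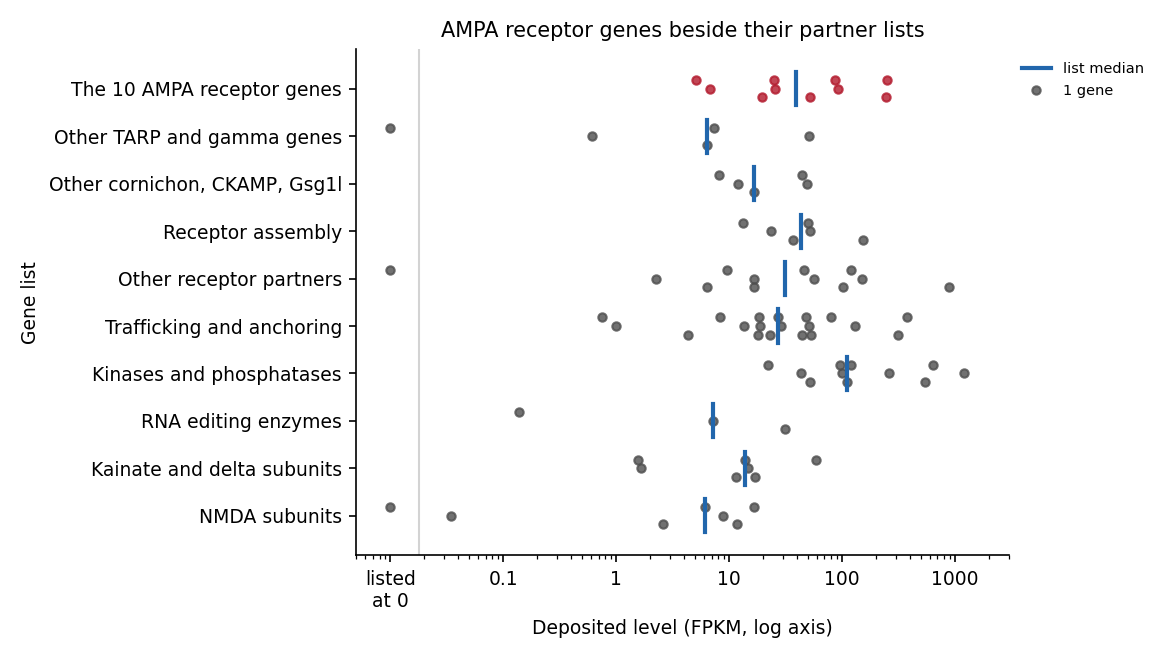
Levels of single genes in the AMPA receptor set (red) and in 9 further lists (grey), in FPKM on a log axis, with list medians as blue bars and genes listed at 0 at the left edge. The AMPA receptor genes span 5.05 to 249 FPKM around 39.2 FPKM, and kinases and phosphatases have the highest median at 112 FPKM. The NMDA list has the lowest median at 6.15 FPKM with Grin1 counted at 0, next to 6.33 FPKM for the other TARP and gamma genes.

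Beside the other ionotropic glutamate receptor genes, the summed pore-forming AMPA genes were 3.07 times the summed kainate and delta genes (7 genes, 120 FPKM, median 13.9 FPKM) and 7.94 times the summed NMDA genes (7 genes, 46.3 FPKM, median 6.15 FPKM). Grik5 led the kainate and delta list at 59.4 FPKM and Grin2a the NMDA list at 16.7 FPKM, both below Gria2 as deposited. Rescaled to its longest coding transcript, Gria2 at 34.1 FPKM would lie below Grik5. The listed transcript of Grin2a is 34.3% as long as its longest coding one, and rescaled it would be at 5.73 FPKM, below Grin2c at 11.9 FPKM. Grin1, the obligatory NMDA subunit gene, was listed at 0, so the NMDA sum holds nothing from it and the NMDA median counts it as 0. Whether its quantification failed was not tested. No test of these differences was possible.

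The tissue label was read against marker lists. All 8 granule cell markers, among them C1ql2 at 111 FPKM, were at 10 FPKM or more, against none of 4 CA1 pyramidal markers, of which Pou3f1 was listed at 0. Among other cells, 6 of 6 astrocyte markers, 4 of 5 oligodendrocyte markers, 5 of 6 microglial markers, 6 of 8 interneuron markers and 3 of 5 markers of CA2 and CA3 reached 10 FPKM. The same level was reached by 1 of 5 mossy cell markers, 1 of 4 oligodendrocyte precursor markers and none of 4 endothelial markers, shares below the 30.8% of all protein-coding names. Some marker levels rest on short listed transcripts: those of Aldh1l1, Gfap and Gad1 were 9.58%, 13.4% and 11.9% as long as the longest coding ones. Rescaled, their values would be lower, and Aldh1l1, an astrocyte marker deposited at 26.3 FPKM, would fall below 10 FPKM. Gfap and Gad1 would stay above it. The marker counts are those of the deposited values and were not redone. Gria4 at 5.05 FPKM lay beside an interneuron marker median of 11.1 FPKM and a precursor marker median of 5.90 FPKM. The medians of mossy cell, CA1, and CA2 and CA3 markers were 2.60, 2.915 and 12.9 FPKM. A level near a list median does not tell which cells hold the transcript. The part of each cell type in the levels of the 10 genes was not tested, and in bulk tissue fewer cells of a type and less RNA per cell cannot be told apart.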

How the data were processed

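Poly(A) RNA from 3 wild-type dentate gyrus samples was sequenced with Illumina HiSeq machines, per the labels' protocols. TopHat and Cufflinks with mm9 and NCBIM37 are named in the submitters' processing notes. The deposited unit is FPKM, per the file headers, with 1 column for the group; the sources used here do not say whether libraries were pooled or averaged, and depth is unknown. The library protocol marks no strand. Of 37681 rows, 36469 held a value. Rows sharing a symbol were summed. Transcript types and lengths came from GENCODE M21 by identifier; 142 of 143 list genes were found, 5 of them by identifier. The members and lists were chosen with earlier results of these data known. Named were all 10 members, every gene of 4 short lists (other TARPs, other auxiliary proteins, assembly, editing) and the highest 3 and lowest of other lists, a part of which are printed; some list genes are not reported here. Syndig1, Myo5b and Ppp3r1 were named beyond this rule, for limits set by listed transcripts. No test was possible with 1 value per gene: ratios are of values without a pseudocount. Coding sequences were aligned with Biopython 1.88 (match 1, mismatch -1), in Python 3.11.15 with pandas 2.3.3 and numpy 2.4.6; plots used matplotlib 3.10.9. Summing and ranking were tested on simulated data. Alternatives changed thresholds, pseudocounts, shared rows and listed transcripts.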

Additional observations from a re-analysis of the deposited data

How the results depend on the processing

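With no replicate spread, an alternative value was taken as moved when it differed by over 1.5 times. Of 64 alternative values for 18 results, 61 stayed within that. No ratio turned direction, but the same pseudocount added to both terms cannot turn one, so only rescaling could have. Some of the 61 could not move. Each member had 1 entry, so keeping the highest row changed nothing, and no member lay below 1 FPKM. The share of Gria1, 67.7% as deposited, had no room to rise by over 1.5 times. It was 98.0% with Gria2 and Gria3 left out. The 3 that moved came from rescaling to the longest coding transcript, an alternative chosen after seeing the data: the ratio of Gria1 to Gria2 was 7.30, that of Gria2 to Gria3 was 1.35, and the share of Gria2 was 10.9%, by construction of the shorter listed transcript of Gria2. In the order of the 10 genes it placed Cnih3 before Gria2, a pair that was not among the ratios. A pseudocount of 1 FPKM moved no ratio by more than 1.15-fold. The count at 10 FPKM was 10 at a threshold of 5 FPKM and 7 at 20 FPKM. Shares of all protein-coding names at these 2 thresholds were not computed, so the 2 counts are not read as high or low. Without Gria2 and Gria3, whose listed transcripts are short or noncoding, the count at 10 FPKM was 6 of 8, against 30.8% of protein-coding names. The median of these 8 was 38.9 FPKM. No paired analysis was possible because there is 1 group and 1 column of values, and leaving out replicates was not run for the same reason. Without counts, the lowest members, Gria4 and Cacng2, have no known precision.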

Other observations

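Cacng8 lies in a row of related genes on chromosome 7, all on the plus strand in mm9. From the start of the row, Cacng7 (3333055 to 3367810) had 51.2 FPKM, Cacng8 had 93.3 FPKM, and Cacng6 (3425423 to 3435658), the next entry, had 0.614 FPKM. Cacng8 exceeded Cacng7 by 1.83-fold. The level thus differed sharply between adjacent members of 1 gene family, with the drop at Cacng6, whose listed transcript is 43.9% as long as its longest coding form. Cacng1, Cacng4 and Cacng5 lie together on chromosome 11, between 107564532 and 107772676, and were listed at 0, at 6.33 FPKM and at 7.37 FPKM.

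The kainate receptor auxiliary genes Neto1 and Neto2 had 13.8 and 3.14 FPKM, below Cacng8 and both cornichon members.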
